A study of Mus musculus with 6 samples.

Results

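Fendrr, Foxf1, Tbx4, Tbx5, Meox2 and Gli1 were followed in cells of C1q-treated and saline-treated mouse lungs. They are 5 transcription factor genes of the lung mesenchyme and the long non-coding RNA gene that starts beside Foxf1. The 6 genes were taken by symbol from the 26890 genes of the deposited count table, and all 6 were found. They were chosen by their role and selected on the C1q against saline fold changes of these same libraries, so those values describe the genes and serve as no independent test of them. All 6 were among the 13473 genes that passed the low-count filter, but Gli1 passed through the C1q libraries alone. The filter asked for 3.55 CPM (read counts relative to library size) in each of 3 libraries, a level that 3 of 3 C1q and 0 of 3 saline libraries reached for Gli1.

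All animals were wild-type (WT) C57BL/6 mice. The control group had received saline and the treated group C1q, the protein that starts the classical complement cascade, at 20 µg per mouse into the trachea, and lungs were taken at day 3. Each group had 3 libraries, read at the 5′ ends of transcripts from digested, Percoll-separated lung cells, and the labels do not say whether each library came from a separate animal, so the errors measure the spread between these samples and may be technical. No library from another instilled protein was analysed here, so effects of C1q and of instilled protein as such cannot be told apart.

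Foxf1 encodes a forkhead transcription factor of the lung mesenchyme and the pulmonary capillary endothelium, where it acts downstream of hedgehog signals from the epithelium during development, and loss of one copy in people causes a lethal failure of alveolar capillary formation. Fendrr is transcribed away from Foxf1 from the neighbouring start site, is needed for heart and body wall development in the mouse, and has been reported to bind chromatin-modifying complexes. Tbx4 and Tbx5 encode T-box factors that act together in lung branching, Meox2 encodes a homeobox factor of mesoderm and vessels, and Gli1 encodes a transcription factor that is both an effector and a target of the hedgehog pathway.

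On GRCm38, in GENCODE M21, Fendrr (ENSMUSG00000097336.8, a processed transcript) lies on the minus strand of chromosome 8 from 121054882 to 121083110, and Foxf1 (ENSMUSG00000042812.5, protein-coding) on the plus strand from 121084386 to 121088144. Their start sites are 1276 bases apart and point away from each other. Tbx4 is on chromosome 11 from 85886422 to 85916097, Tbx5 on chromosome 5 from 119832668 to 119885219 and Meox2 on chromosome 12 from 37108540 to 37179534, all on the plus strand. Gli1 is on the minus strand of chromosome 10 from 127329882 to 127341974. The libraries were sequenced from 5′ ends, so the sequence around the annotated start is shown. RefSeq windows of 300 bases, 250 before and 50 after the start, were matched for 3 of the 6 genes on GRCm38.p6: Fendrr at chr8:121083061-121083360 on the minus strand, Tbx4 at chr11:85896515-85896814 and Meox2 at chr12:37108290-37108589 on the plus strand. The RefSeq start of Tbx4 lies inside its GENCODE span, downstream of the GENCODE start. These 3 windows are shown because the set of windows used held none for Foxf1, Tbx5 and Gli1. Each is written 5′ to 3′ along its gene, with matches to the motifs described next in capitals.
Fendrr: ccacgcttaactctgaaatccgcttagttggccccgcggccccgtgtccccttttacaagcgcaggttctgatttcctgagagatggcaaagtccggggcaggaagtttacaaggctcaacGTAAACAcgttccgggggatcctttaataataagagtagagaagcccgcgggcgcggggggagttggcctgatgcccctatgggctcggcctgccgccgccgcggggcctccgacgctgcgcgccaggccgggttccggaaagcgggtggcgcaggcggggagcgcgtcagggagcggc
Tbx4: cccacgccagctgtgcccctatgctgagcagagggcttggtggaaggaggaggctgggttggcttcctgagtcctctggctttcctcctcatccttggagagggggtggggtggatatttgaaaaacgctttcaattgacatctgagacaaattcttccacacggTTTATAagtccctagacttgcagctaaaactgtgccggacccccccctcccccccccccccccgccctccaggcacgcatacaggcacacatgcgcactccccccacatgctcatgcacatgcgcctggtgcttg
Meox2: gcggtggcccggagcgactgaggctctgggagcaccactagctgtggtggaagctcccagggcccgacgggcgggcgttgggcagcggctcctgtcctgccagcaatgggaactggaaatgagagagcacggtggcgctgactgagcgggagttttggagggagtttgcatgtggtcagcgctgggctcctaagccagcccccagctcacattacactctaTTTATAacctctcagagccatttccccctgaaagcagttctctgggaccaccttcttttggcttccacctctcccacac

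In these windows 5 motifs were searched on both strands: a forkhead motif (GTAAACA), a GLI motif (GACCACCCA), a T-box motif (AGGTGTGA), a TATA box (TATAAA) and a CCAAT box (CCAAT). The Fendrr window held 1 match, to the forkhead motif, whose first base lies 129 bases before the start. A forkhead match was present in 3.65% of the 32851 RefSeq windows of this length. The Tbx4 and Meox2 windows each held 1 TATA box match, on the opposite strand, beginning 85 and 29 bases before the start, against 13.6% of all windows. There was no match to the GLI, T-box or CCAAT motifs, which 0.253%, 1.28% and 37.4% of all windows hold. The motif letters do not overlap each other in these 3 windows. The Fendrr window was rich in CpG, with 31 such pairs, where Tbx4 had 8, Meox2 had 12 and the median over all windows was 7. A match describes letters only and does not show that a factor binds.

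Levels are CPM on library sizes scaled by edgeR's TMM method, and values by library are in the order of replicates 1, 2 and 3. Total counts ran from 2227619 to 3650793 per library, and 3 counts corresponded to 0.83 to 1.35 CPM. No 2 of the 6 libraries were copies of each other: chi-square divided by its degrees of freedom was 5.04 to 16.4 over the 15 pairs. The widest pair was saline replicates 2 and 3 (16.4), within the control group, and the closest was C1q replicates 2 and 3 (5.04). C1q replicate 2 stood apart through 19 genes at more than 4 times the level of every other library and above 10 CPM, where the other libraries had 0 to 3 such genes, and 0 of the 6 genes described here were among them. Epithelial, endothelial, fibroblast and leukocyte markers were all present, as in whole lung, and 0 of the marker genes used here were at 0 in every library.

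Fendrr was the gene with the clearest difference between the groups, being lower in the C1q libraries. Its level was 91.0, 101.2 and 101.2 CPM in the 3 saline libraries and 51.7, 63.5 and 48.3 CPM in the 3 C1q libraries. The 3 C1q libraries lay below the whole saline range, with a gap wider than the spread within either group. The mean went from 97.8 ± 5.91 to 54.5 ± 7.97 CPM (SD, n = 3 each), which is 44.3% lower, and rested on 804 counts in saline and 474 in C1q. The log2 fold change in the edgeR fit over all genes was -0.84 ± 0.16 (SE), with a 95% interval of -1.19 to -0.50. The adjusted p over 13473 genes was 0.231 by edgeR's quasi-likelihood test, so Fendrr did not pass, and it had the smallest p of all genes with a lower mean after C1q (unadjusted p = 0.000244). This rank is part of how the gene was chosen.

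The call on Fendrr depended on the method while its fold change barely moved. DESeq2 gave an adjusted p of 0.0272 at a log2 fold change of -0.85, and called 1 gene lower in all (0.00742% of genes tested), which was Fendrr, and 0.23% higher. With 1 surrogate variable in the edgeR fit the adjusted p was 0.00421, among 223 genes called lower (1.66%, with 1.01% higher), and with no filter on low counts it was 0.00427, among 215 called lower (0.8%, with 0.588% higher). Limma-voom did not call it (adjusted p = 0.219). When 1 library was left out the log2 fold change lay between -0.96 (without C1q replicate 2) and -0.76 (without C1q replicate 3), and the adjusted p between 0.128 and 0.854.

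Foxf1, whose start is next to that of Fendrr, stood at 301, 339 and 225 CPM in the 3 saline libraries against 257, 313 and 224 CPM in the 3 C1q libraries. The groups overlapped almost completely, and in each group replicate 2 was the highest and replicate 3 the lowest library. The mean was 288 ± 58.0 CPM in saline against 265 ± 44.8 CPM in C1q. The log2 fold change was -0.12 ± 0.19 (adjusted p = 0.875), with a 95% interval of -0.55 to 0.30, and it was 0.01 without saline replicate 2. The interval is wide enough that equal levels were not shown.

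The ratio of Fendrr to Foxf1 counts within a library does not depend on how libraries are scaled. There were 30.3, 29.8 and 44.9 Fendrr counts per 100 Foxf1 counts in the 3 saline libraries, and 20.1, 20.3 and 21.6 in C1q replicates 1 to 3. All 3 C1q libraries lay below all 3 saline libraries, and saline replicate 3, the saline library with the least Foxf1, stood well above the other saline libraries. The mean was 35.0 ± 8.60 in saline and 20.7 ± 0.793 in C1q, a difference of -0.73 in mean log2 ratio, or -0.54 without saline replicate 3. The ratio comes from the values that chose the genes and was not tested. Other genes of this locus were sparsely counted: Mthfsd, downstream of Foxf1, had 106 counts in saline and 99 in C1q, and the forkhead genes Foxc2 and Foxl1 had 5 and 14 counts in saline and 4 and 15 in C1q.

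**Figure D1:**
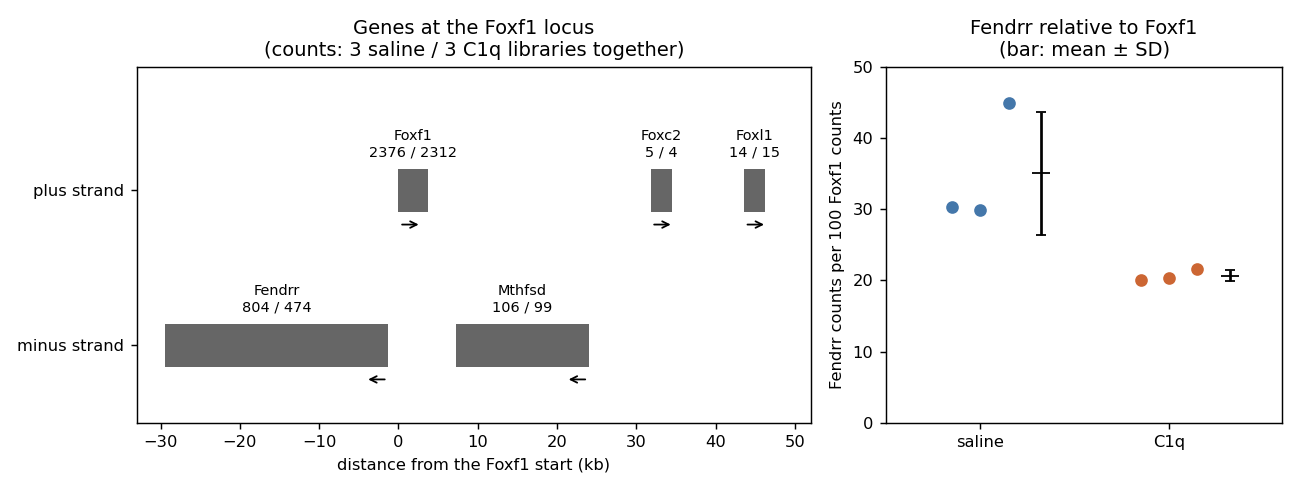
Left, the genes around Foxf1 drawn to scale as distance from the Foxf1 start in kb, with arrows at the start sites and each gene's counts summed over the 3 saline and the 3 C1q libraries; right, Fendrr counts per 100 Foxf1 counts in each library (points) with mean ± SD (bars). Fendrr went from 804 to 474 counts where Foxf1 had 2376 and 2312, and the C1q ratios of 20.1 to 21.6 lie below the saline ratios of 29.8 to 44.9.

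The T-box pair Tbx4 and Tbx5 was slightly lower on average after C1q, within the spread of the libraries. Tbx4 stood at 59.5, 52.2 and 59.8 CPM in the 3 saline libraries and at 40.4, 54.7 and 51.0 CPM in C1q replicates 1 to 3. C1q replicate 1 was the lowest library and C1q replicate 2 was above saline replicate 2, so the groups overlapped. The log2 fold change of Tbx4 was -0.24 ± 0.16, with a 95% interval of -0.60 to 0.13 (adjusted p = 0.693), and it was -0.11 without C1q replicate 1. Tbx5 stood at 44.4, 40.9 and 38.1 CPM in the 3 saline libraries and at 34.02, 32.8 and 38.4 CPM in C1q replicates 1 to 3. Here a single C1q library, replicate 3, reached into the saline range. The log2 fold change of Tbx5 was -0.23 ± 0.16, with a 95% interval of -0.58 to 0.11 (adjusted p = 0.684). The number of Tbx4 counts per 100 Tbx5 counts was 140 ± 15.3 in saline and 139 ± 24.6 in C1q, so the pair kept nearly the same mean proportion in both groups. The lncRNA gene Gm5563 lies within the span that RefSeq gives Tbx5, and it was at 6.76 ± 1.99 CPM in saline against 7.22 ± 0.889 CPM in C1q.

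Meox2 gave the smallest difference of the 6 genes. It stood at 17.0, 14.2 and 14.6 CPM in the 3 saline libraries and at 13.3, 15.5 and 18.1 CPM in C1q replicates 1 to 3, so that both the lowest and the highest library were C1q libraries. The log2 fold change was 0.02 ± 0.23 with a 95% interval of -0.48 to 0.52 (adjusted p = 0.989), and it was -0.03 with library size only, so no direction can be given. With 35 to 53 counts per library, counting alone gives a coefficient of variation of 13.7% to 16.9%.

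Gli1 was higher on average in the C1q libraries, at the edge of detection. It had 9, 7 and 3 counts in the 3 saline libraries and 20, 11 and 9 in the 3 C1q libraries, or 2.89, 2.83 and 1.12 CPM against 5.53, 3.88 and 4.06 CPM. All C1q libraries lay above all saline libraries, but the filter let Gli1 in through those C1q libraries, so the separation was in part required for it to be tested. The exact 95% binomial interval, on unscaled library size and covering counting error only, was 0.24 to 3.40 CPM in saline replicate 3 and 1.85 to 7.67 CPM in C1q replicate 3, and these overlap. The log2 fold change was 0.97 ± 0.46, with a 95% interval of -0.05 to 1.99 (adjusted p = 0.606), and it was 0.66 without saline replicate 3. Without C1q replicate 1 Gli1 no longer passed the filter. In RefSeq 66 bases of the Gli1 span overlap Arhgap9, and with strand handling not given in the sources used here, reads from overlapping or antisense genes cannot be told apart. Arhgap9 was also higher on average, at 19.4 ± 0.989 CPM in saline against 25.9 ± 4.64 CPM in C1q, and its part in the Gli1 counts was not tested.

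**Figure D2:**
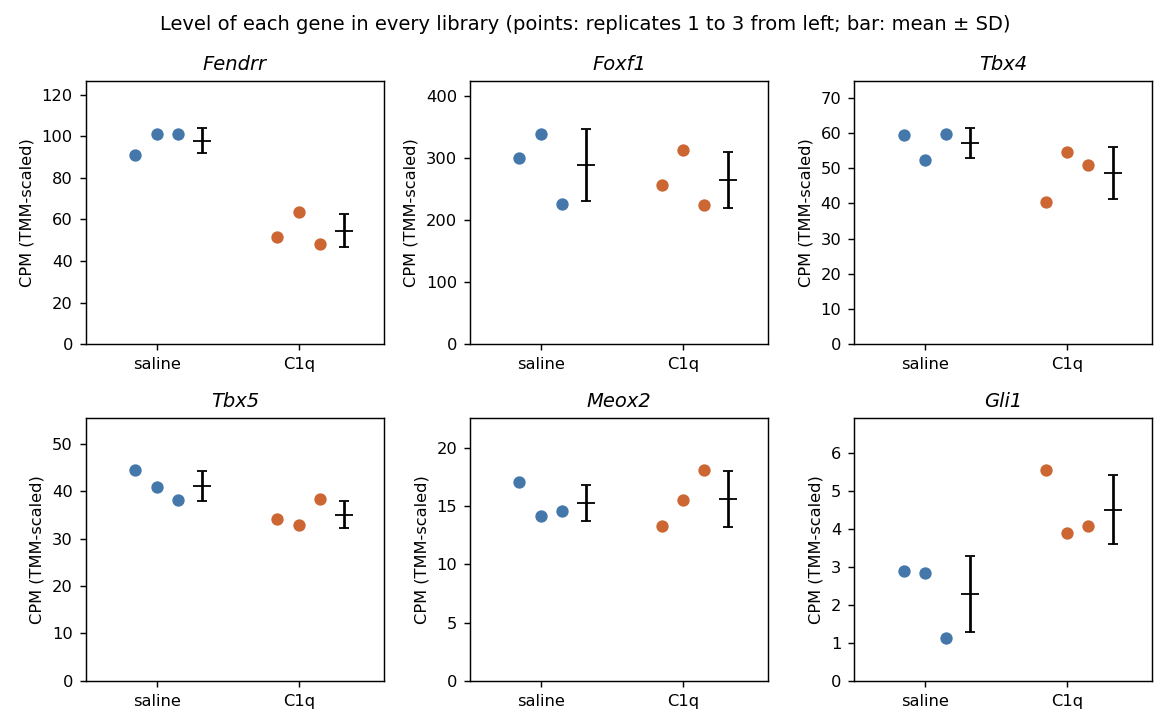
Level of each of the 6 genes (y axis, CPM on TMM-scaled library sizes, starting at 0) in the 3 saline and 3 C1q libraries (points, replicates 1 to 3 from left) with mean ± SD (bars). The Fendrr points are separated at 91.0 to 101.2 CPM against 48.3 to 63.5 CPM and the Gli1 points at 1.12 to 2.89 CPM against 3.88 to 5.53 CPM, while the groups overlap for the other genes.

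Across the 6 genes, edgeR's test over all genes called 0, either lower (0.0% of all genes called) or higher (0.0297%). DESeq2 called 1, Fendrr, limma-voom called 0, and 1, Fendrr, had an unadjusted p under 0.05 (3.94% of all genes did in the lower direction, 4.22% in the higher and 8.16% in either). The groups did not overlap for Fendrr, where 5.96% of all genes tested lay wholly below the saline range, and for Gli1, where 8.12% lay wholly above it (14.1% in either direction). Both genes were chosen with these values in view, so nothing is read from the counts.

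**Figure D3:**
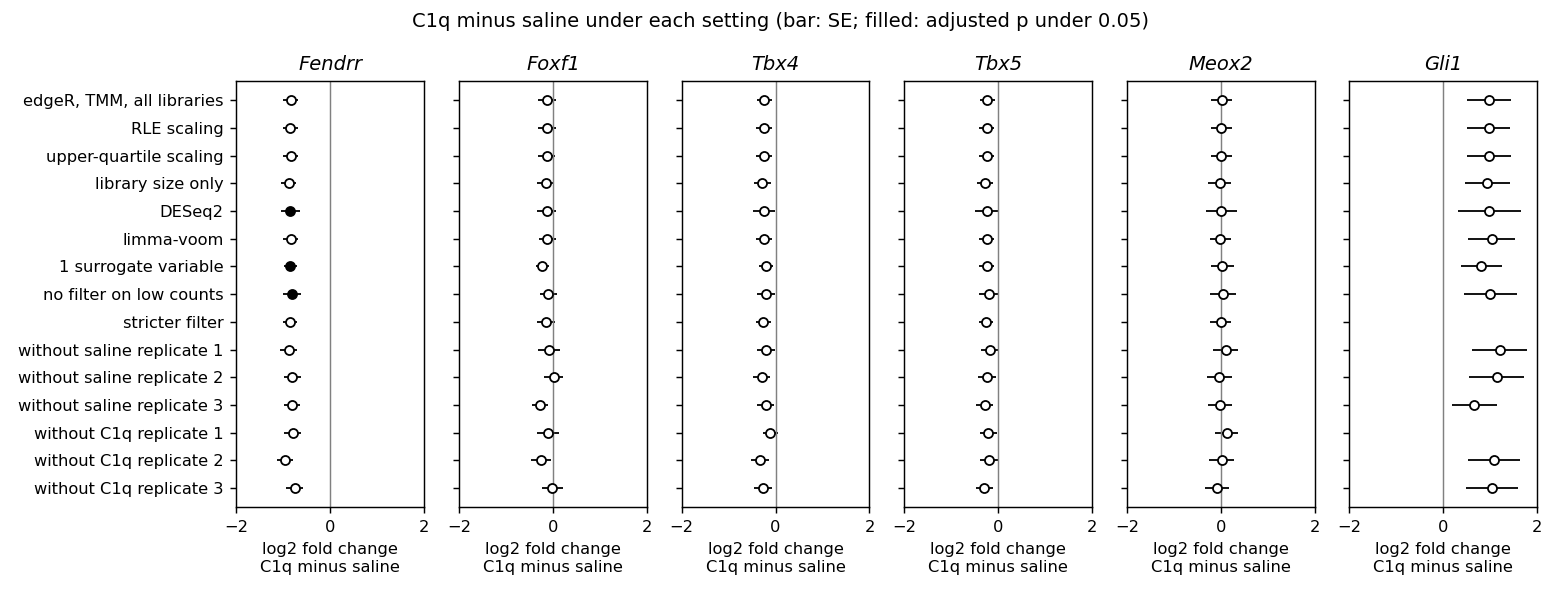
Log2 fold change, C1q minus saline (x axis), of each gene under each scaling, test, filter and left-out library (rows), with the SE as bars and filled points where the adjusted p was under 0.05. Fendrr stays between -0.96 and -0.76 and is filled in 3 rows, Foxf1 and Meox2 sit around 0, and Gli1 has no point where the filter removed it.

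The wider setting was described with 8 lists of related genes, 86 genes in all, of which 62 were tested. Over all genes edgeR called 0 of the 62, as did DESeq2 and limma-voom, and 9 had an unadjusted p under 0.05 (8.16% of all genes did), 8 lower (3.94% of all genes) and 1 higher (4.22%). All 3 C1q libraries lay below the saline range for 10 of the 62 (16.1%, against 5.96% of all genes) and above it for 2 (3.23%, against 8.12%). The 10 include Foxc1 and Wnt2b, and the 8 include Foxc1. Foxc1 and Wnt2b passed the low-count filter through the saline libraries alone and so had to be lower in C1q. The other tested genes of the lists did not pass in that way. All lists were chosen with earlier results of these data known, so nothing is read from these shares. The median log2 fold change of all genes tested was -0.01.

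The hedgehog list holds the ligands, receptors and mediators of the pathway that ends in Gli1. Of its 16 genes 12 were tested and 0 were called, with 8 positive and 4 negative log2 fold changes and a median of 0.22, or 0.11 without C1q replicate 2. Among the direct target genes of the pathway, Hhip, a decoy receptor, went from 52.4 ± 11.5 to 75.0 ± 16.5 CPM (log2 fold change 0.52 ± 0.21, adjusted p = 0.602), and Ptch1, the receptor for the ligands, from 60.3 ± 6.01 to 49.5 ± 7.88 CPM (-0.29 ± 0.17, adjusted p = 0.647). These targets of the same pathway therefore differed from each other in the sign of their mean difference. Hhip passed with 1 surrogate variable in the fit (adjusted p = 0.0373). The co-receptor Boc, at 21.2 ± 0.578 CPM in saline against 25.7 ± 1.40 CPM in C1q, was the gene whose C1q libraries all lay above saline (8.12% of all genes). Ptch1 was the one whose C1q libraries all lay below (5.96% of all genes). Scube2, which helps release the ligands from cells, was at 95.1 ± 22.8 and 122.7 ± 16.8 CPM. The ligand Shh was near the floor, at 5.21 ± 3.01 CPM in saline against 4.70 ± 2.00 CPM in C1q.

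Among relatives of Foxf1, values lay on both sides of 0. In the forkhead list 6 of 10 genes were tested, 0 were called, and the median was -0.09, which became positive without saline replicate 2 (0.07), without saline replicate 3 (0.25) and with no filter (0.07). Foxf2, the closest relative of Foxf1, stood at 21.9 ± 5.74 CPM in saline against 27.8 ± 3.65 CPM in C1q. Foxp1, a repressor found in lung epithelium and other cells, stood at 226 ± 37.1 and 163 ± 9.73 CPM (log2 fold change -0.47 ± 0.16, adjusted p = 0.548). Its C1q libraries were all below saline (5.96% of all genes). The other forkhead gene with that separation, Foxc1, was named after its values were seen; at 5.87 ± 1.26 and 2.34 ± 0.896 CPM it had passed the filter through the saline libraries alone. In the T-box and Meox list 4 of 7 were tested and 0 were called, with 3 negative log2 fold changes and 1 positive, that of Tbx1 (0.14 ± 0.36). Tbx3, which regulates proliferation in the lung mesenchyme, stood at 93.1 ± 10.2 CPM in saline against 67.4 ± 6.75 CPM in C1q (-0.47 ± 0.15, adjusted p = 0.536). Of the 4 it was the 1 gene with all C1q libraries below saline (5.96% of all genes). Tbx2, the nearest gene on one side of Tbx4, stood at 107.6 ± 15.3 and 98.4 ± 7.96 CPM with the groups overlapping. Meox1, the paralogue of Meox2, stood at 13.9 ± 0.999 and 13.3 ± 3.33 CPM.

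Of 22 other transcription factors of the lung mesenchyme 19 were tested and 0 were called, with a median log2 fold change of -0.11. Of the 19, 4 had an unadjusted p under 0.05, all lower (3.94% of all genes did in that direction). Ebf1, a factor of pericytes, fibroblasts and B cells, was at 35.4 ± 9.60 CPM in saline against 21.99 ± 3.26 CPM in C1q (-0.68 ± 0.23, adjusted p = 0.536). Meis2, a homeobox factor, was at 29.4 ± 2.62 and 19.8 ± 5.09 CPM (-0.55 ± 0.22, adjusted p = 0.602). These were the factors with all C1q libraries below saline (5.96% of all genes). The others of the 4 were Meis1 at -0.46 ± 0.19 and Zeb1 at -0.48 ± 0.22. Tcf21, a factor of alveolar fibroblasts named after its values were seen, was the factor with all C1q libraries above saline (8.12% of all genes). It was at 87.9 ± 7.52 and 104.3 ± 3.68 CPM.

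Signals made by the mesenchyme, 6 of 6 tested and 0 called, had a median of -0.11, or -0.00337 without C1q replicate 1. Fgf10, the branching signal controlled by Tbx4 and Tbx5 in the embryo, was at 21.4 ± 2.91 CPM in saline against 23.5 ± 4.23 CPM in C1q, and Bmp4 was at 41.7 ± 12.04 and 43.9 ± 1.79 CPM. Wnt5a had all C1q libraries below saline (5.96% of all genes), at 16.4 ± 2.36 and 13.4 ± 0.597 CPM (-0.29 ± 0.22, adjusted p = 0.726). Wnt2b, named after its values were seen, did too, at 4.29 ± 0.681 and 2.52 ± 1.01 CPM, but it had passed the filter through the saline libraries alone. Fgf7 was at 26.2 ± 4.89 and 22.4 ± 3.63 CPM.

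Endothelial genes that have been linked to Foxf1 were lower on average by a small and even amount. All 7 were tested, 0 were called and 0 had an unadjusted p under 0.05, and their log2 fold changes ran from -0.33 to -0.20 with a median of -0.27. The general endothelial markers had lower means as well: all 8, of which Pecam1, Cdh5 and Tek are in both lists, had negative log2 fold changes with a median of -0.22, and the part of this in the values of the list was not tested. Kdr, a receptor for VEGF, was at 370 ± 68.3 CPM in saline against 294 ± 27.6 CPM in C1q, S1pr1, a receptor for sphingosine-1-phosphate, at 248 ± 48.1 and 199 ± 16.7 CPM, and Cdh5, the endothelial cadherin, at 592 ± 39.2 and 493 ± 68.9 CPM. Flt1 (292 ± 15.2 and 246 ± 25.4 CPM) and Tek, named after its values were seen, had all C1q libraries below saline (5.96% of all genes).

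Other lncRNAs that start beside transcription factor genes were too scarce for a comparison with Fendrr. Of 12 in the list 10 were in the table and 2 were tested, with 0 called. Hotairm1, of the Hoxa cluster, was at 11.3 ± 5.08 CPM in saline against 4.58 ± 1.72 CPM in C1q with overlapping groups (-1.25 ± 0.43, adjusted p = 0.561), and passed with 1 surrogate variable in the fit (adjusted p = 0.0181). Tbx3os1 was at 4.89 ± 1.75 and 2.95 ± 1.05 CPM. Subunits of chromatin complexes that Fendrr has been reported to bind were all 6 tested and 0 called, with a median of -0.04. Kmt2a, a histone methyltransferase of the Trithorax group, was at 122.8 ± 23.8 and 97.1 ± 16.6 CPM (-0.34 ± 0.19) and Ezh1, a Polycomb methyltransferase, had a log2 fold change of -0.23 ± 0.18. Wdr5, a subunit of Trithorax complexes, and Ezh2, the other Polycomb methyltransferase, had positive ones, at 0.26 ± 0.20 and 0.33 ± 0.32.

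**Figure D4:**
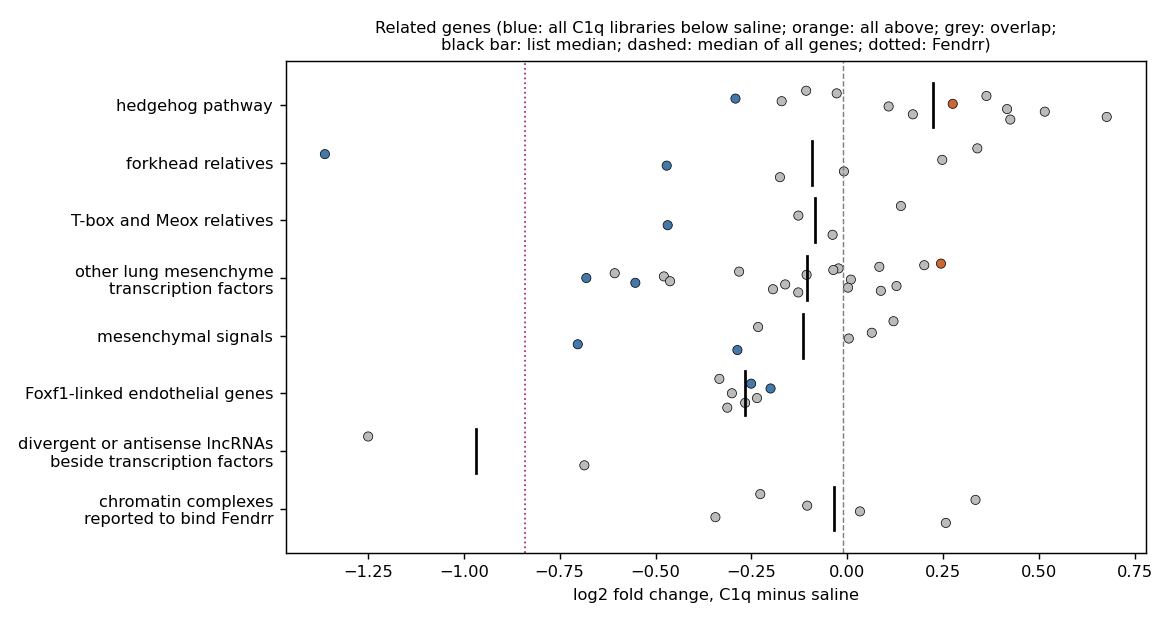
Log2 fold change, C1q minus saline (x axis), of each tested gene in the 8 lists (rows), coloured by whether its C1q libraries lie below, above or within reach of the saline range, with each list's median as a black bar, the median of all genes (-0.01) dashed and Fendrr (-0.84) dotted. The endothelial genes form a tight group from -0.33 to -0.20, and Hotairm1 and Foxc1 lie beyond Fendrr.

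The genes described here are made by several cell types, so the makeup of the cell suspensions was read from marker sums. The 10 fibroblast markers summed to 2175 to 2356 CPM in saline against 2941 to 3011 CPM in C1q, with all C1q libraries above saline for the sum and for 8 of the 10 genes (8.12% of all genes). The largest log2 fold changes of the 10 were those of the collagen genes Col1a1 (165 ± 38.2 to 328 ± 62.2 CPM) and Col1a2 (241 ± 24.0 to 436 ± 63.2 CPM). The groups overlapped for Pdgfra (255 ± 13.0 and 269 ± 37.5 CPM) and Col13a1 (65.6 ± 3.82 and 65.4 ± 6.21 CPM), so the markers did not rise evenly. EdgeR called 0 of the 10, with 5 higher at an unadjusted p under 0.05 (4.22% of all genes), and DESeq2 called 2 (0.23% of all genes were called higher). The sum of the 7 pericyte markers went the other way, at 271 to 280 CPM in saline against 202 to 219 CPM in C1q. This was a log2 ratio of -0.41. Of the 7 genes, 5 had negative and 2 positive log2 fold changes. The C1q libraries lay wholly below saline for 3 (5.96% of all genes) and wholly above for 1 (8.12%). That 1 was Kcnj8, at 7.84 ± 1.30 and 12.3 ± 3.82 CPM. EdgeR and DESeq2 called 0 of the 7, with 4 lower at an unadjusted p under 0.05 (3.94% of all genes). The sum of the 7 cardiomyocyte markers was lower too, at 142 to 160 CPM and 110 to 139 CPM, but for 0 of the 7 genes did the C1q libraries all lie below saline. Most of that sum was Actc1, at 125 ± 14.4 and 99.9 ± 11.6 CPM with overlapping groups, while Tnnt2 was at 7.30 ± 1.14 and 7.95 ± 2.99 CPM and Nppa had at most 3 counts in any library. The 5 erythroid markers ranged from 117 to 273 CPM in saline and from 37.9 to 191 CPM in C1q, lowest in C1q replicate 3, with the groups overlapping. The 8 endothelial markers (3224 to 3751 and 2751 to 3548 CPM) and the 6 smooth muscle markers (651 to 754 and 605 to 743 CPM) overlapped between the groups. So did the 8 epithelial markers, whose sum was 63260 CPM in saline replicate 2 against 28979 to 39087 CPM in the other libraries. In bulk samples such as these, fewer cells of a type and less RNA per cell cannot be told apart. Fendrr can also be given relative to these sums, as a description built from the values by which it was chosen. Per 1000 counts of endothelial markers there were 24.3 to 31.4 Fendrr counts in saline and 17.2 to 17.9 in C1q, and per 1000 counts of pericyte markers 325 to 374 and 236 to 308. The C1q ratios likewise lay below the saline ratios for the fibroblast, smooth muscle, aerocyte, leukocyte and cardiomyocyte sums, but not for the epithelial, mesothelial and erythroid sums. The part of the differences in the fibroblast, pericyte and cardiomyocyte sums in the Fendrr value was not tested.

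**Figure D5:**
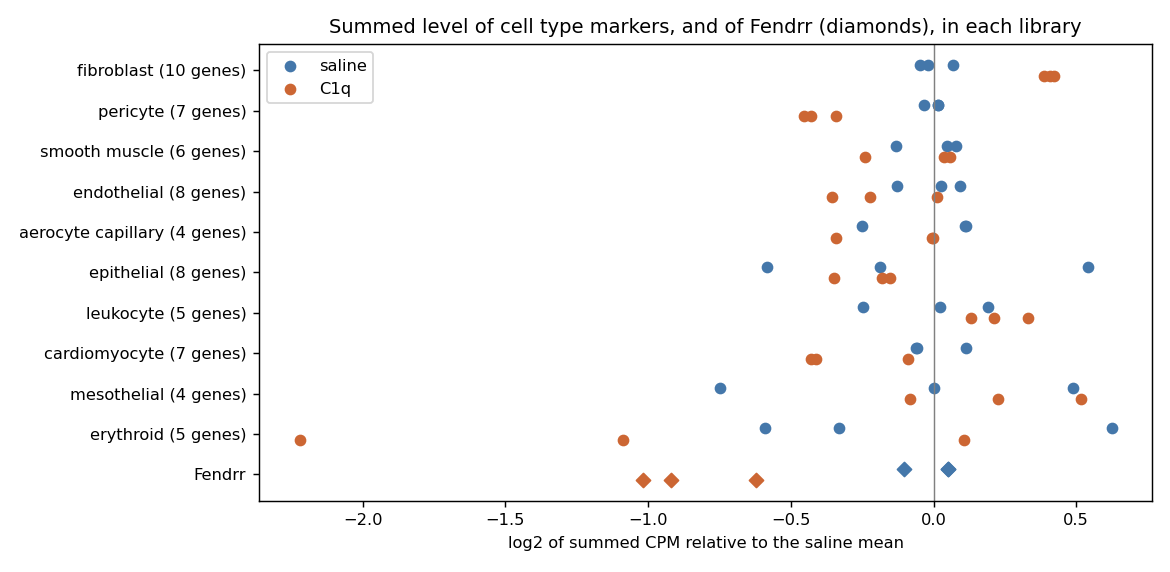
Summed CPM of each marker list, as log2 relative to the saline mean (x axis), in each library (circles), with Fendrr below as diamonds. Fibroblast sums lie higher in all C1q libraries, pericyte and cardiomyocyte sums lower, the Fendrr diamonds of the C1q libraries lie left of those of saline, and the erythroid sums spread most, from 273 CPM in a saline library to 37.9 CPM in C1q replicate 3.

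The genes whose profile over the 6 libraries was most like that of Fendrr were found by the root-mean-square difference of mean-centred log2 CPM, among 10341 other genes at 10 CPM or more on average. They were Myct1 (0.138), Adamts13 (0.141), Ak7 (0.141), Camta1 (0.141) and Denn2b (0.145). For each of them all C1q libraries lay below saline (5.96% of all genes). Picking genes by likeness to Fendrr favours that separation, so nothing is read from it. Myct1 went from 78.7 ± 7.06 to 50.3 ± 6.69 CPM and Adamts13 from 16.8 ± 2.65 to 7.87 ± 1.03 CPM. Foxf1 was rank 2087 in likeness to Fendrr, at 0.413, while Tbx4 was rank 748, Tbx5 rank 1187 and Meox2 rank 4822. Ranked the other way, by likeness to Foxf1, Fendrr was rank 8122 at the same 0.413. The genes most like Foxf1 were Exosc10 (0.032), Lsm10 (0.034), Pltp (0.040), Acaa1b (0.041) and Slc43a3 (0.051), all with overlapping groups. Likeness over 6 libraries includes the treatment difference and any other difference between libraries that the scaling leaves, and says nothing of shared control.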

How the data were processed

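The 6 libraries were grouped by their treatment label into saline (n = 3) and C1q (n = 3) and numbered in the order of deposition, so the numbers pair nothing. The treatment protocol text names C1q for every sample, and the treatment field alone separates the groups. The values deposited by the authors are raw counts, whole numbers per gene symbol. Cutadapt 2.1.0, Bowtie2 2.4.2 and GRCm38 are named per the submitters' processing notes, and the counting step, annotation, strand handling and any use of molecular identifiers were not given in the sources used. After filterByExpr and TMM scaling, a two-sided quasi-likelihood test was run in edgeR 4.0.16 (glmQLFit, glmQLFTest) with treatment alone in the model, with Benjamini-Hochberg adjustment over all 13473 genes and a threshold of 0.05. Each SE is the absolute log2 fold change over the square root of F, and 95% intervals come from the SE and the test's degrees of freedom. Likeness used log2 CPM with a prior count of 2. The test was checked on simulated data. Alternatives were RLE, upper-quartile and library-size scaling, DESeq2 1.42.0, limma-voom (limma 3.58.1), 1 surrogate variable (sva 3.50.0), no filter, a stricter filter of 30 counts in 3 libraries, and leaving out each library. The genes and lists were chosen with earlier results of these data known. Named from each list were up to 4 members with the smallest p, those at 5 CPM or more first, and any others were named after their values were seen. Symbols matched GENCODE M21 for 12757 and RefSeq GRCm38.p6 for 13320 of the genes tested.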

Additional observations from a re-analysis of the deposited data

How the results depend on the processing

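No paired analysis was possible because the labels give the 2 groups no shared replicate numbers. The number of genes called, 4 in the edgeR fit with 4 higher and 0 lower, was 32 (31 higher, 1 lower) with DESeq2, 359 (136 higher, 223 lower) with 1 surrogate variable and 373 (158 higher, 215 lower) with no filter on low counts. With 1 library left out it ranged from 0 to 10, with 0 to 9 higher and 0 to 1 lower: leaving out saline replicate 1 gave 0, saline replicate 3 gave 10, C1q replicate 1 gave 1 and C1q replicate 2 gave 2. The cause of these differences was not tested. Fendrr passed with DESeq2 (log2 fold change -0.85), with 1 surrogate variable (-0.85) and with no filter (-0.81), and kept its negative sign in all 14 alternatives. Foxf1 ranged from -0.272 to 0.0147 with 1 library left out and was reversed without saline replicate 2 (0.0147). Meox2 was reversed with library size only (-0.0251), limma-voom (-0.0119) and the stricter filter (-0.00493), and ranged from -0.0854 (without C1q replicate 3) to 0.130 with 1 library left out. Tbx4 and Tbx5 stayed negative in all 14, and Gli1 positive in the 12 that could test it, being removed by the stricter filter and without C1q replicate 1. With 1 library left out, the sign also depended on the library for Tbx1 (-0.0678 to 0.308), Meox1 (-0.151 to 0.143), Fgf10 (-0.0100 to 0.262) and Bmp4 (-0.0675 to 0.335). The log2 ratio of Fendrr to Foxf1 ranged from -0.84 to -0.54 with 1 library left out. List medians moved by less than the spread between replicates in 103 cases and by more in 8, and marker sums by less in all 70; under the stricter filter no lncRNA of the list could be tested. Depth limits Gli1, Foxc1 and Wnt2b, which lay near the filter.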
